A study of Mus musculus with 16 samples.

Results

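Semaphorins, ephrins, Slits and netrins are the classical secreted or membrane-bound cues that steer growing axons, and plexins, neuropilins, Eph receptors, Robo receptors and Unc5 receptors are the cell-surface proteins that read them. The same cues also act outside the nervous system, in blood vessels, the heart and migrating cells of the embryo. Many such developmental genes are silent or weakly transcribed in pluripotent cells, where the Polycomb repressive complexes PRC1, which monoubiquitylates histone H2A through RING1A or RING1B, and PRC2, which methylates lysine 27 of histone H3 and needs EED, are found at CpG-rich promoters.

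The 4 families of cue and receptor were examined in nuclear RNA-seq of mouse embryonic stem cells (ESCs), by taking every gene whose symbol starts with *Sema*, *Plxn*, *Nrp* (*Nrp1* and *Nrp2*), *Epha*, *Ephb*, *Efna*, *Efnb*, *Slit*, *Robo*, *Ntn* or *Unc5*. This gave 73 of 19338 gene symbols, each represented by its transcript entry with the highest mean count. Of the 73, 3 are no guidance ligand or receptor: *Unc50* and *Unc5cl*, which were called in no comparison, and the antisense gene *Plxna4os1*, which had a mean count of 0. The other 70 are 37 ligands (20 semaphorins, 8 ephrins, 3 Slits, 6 netrins and netrin-G proteins) and 33 receptors (9 plexins, 2 neuropilins, 14 Eph receptors, 4 Robo and 4 Unc5 receptors), and all counts below refer to these. They lie on 19 chromosomes, 57 of them had a mean normalized count of at least 100 over all libraries, and 3 had one under 10.

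There were 4 groups of 4 libraries, 16 in all. Control cells were untreated Ring1a-/-;Ring1bfl/fl ESCs, which already lack RING1A, and PRC1-null cells were the same line after 800 nM 4-hydroxytamoxifen for 72 h, which deletes *Ring1b*. PRC2-null cells were the untreated Eed-/-;Ring1a-/-;Ring1bfl/fl (PcG DKO) line, and PRC1/2-null cells were that line after the same tamoxifen treatment. No group that kept *Ring1b* was given tamoxifen, so that *Ring1b* loss and tamoxifen itself cannot be told apart. The PcG DKO line is the single CRISPR/Cas9 clone B4 and was used at passages 30 to 40, against 25 to 35 for the other line, so that *Eed* loss, clone and passage cannot be told apart. Cells were grown without feeders in serum and LIF.

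Where 4 levels stand together they are in the order control, PRC1-null, PRC2-null, PRC1/2-null, and 3 fold changes follow the same order without the control. The tables used here hold, for each null group against control, a log2 fold change moderated toward 0 (shrunken in proportion to its uncertainty), its standard error (SE) and an adjusted p from the authors' fit, with no values for single libraries. A gene is said to have risen or fallen, or to be called, where the adjusted p was under 0.05 and the moderated log2 fold change was beyond 1 in size, the threshold of the study. A group level is an implied mean, worked back from the mean normalized count over all libraries and the 3 unshrunken fold changes; it carries no error, is not divided by gene length, and can be compared between groups for a gene but not between genes. Because no library has a value of its own, the spread between libraries enters only through the SE, and whether groups overlap library by library cannot be said. In bulk samples, more cells that express a gene and more RNA per cell cannot be told apart.

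*Eed* had an implied mean of 4315 in control and 1161 in PRC2-null cells (moderated log2 fold change -1.89 ± 0.09 SE), and *Rnf2*, which encodes RING1B, went from 3901 in control to 2926 in PRC1-null cells (-0.41 ± 0.09); both are counts over the whole gene, with exons outside the deletions, and so are a weak check of the labels. Several cell type markers moved with the groups. The 9 pluripotency markers found had summed implied means of 51005, 41738, 30515 and 11740, with 0, 2 and 9 of them falling in the 3 null groups; in PRC1-null cells 5 were lower at an adjusted p under 0.05 without the fold threshold in the authors' DESeq2 test, and 6 at an unadjusted p under 0.05. The 10 primitive endoderm markers summed to 31840, 40976, 174036 and 129198 in the same order, with 4, 10 and 8 rising. Most of each of these sums was *Lama1* (19015, 20321, 87513 and 51959) and *Col4a1* (9791, 14135, 67380 and 58709). The 8 trophoblast markers found summed to 183, 648, 2294 and 4265, with 5, 8 and 8 rising. Among 13 neuronal and neural progenitor markers, 3 rose and 2 fell in PRC1-null, 2 rose and 2 fell in PRC2-null and 4 rose and 4 fell in PRC1/2-null cells, with sums of 4232, 4887, 6138 and 6311 and *Dcx*, a marker of newborn neurons, under 3 in every group. The 10 fibroblast and feeder markers summed to 850, 2157, 3082 and 3807, with 5, 4 and 4 rising, while *Col3a1*, *Dcn* and *Lum* stayed under 4 in every group. Most of each sum was *Pdgfra*, which is also on the primitive endoderm list; the other 9 summed to 218, 535, 495 and 563, with 4, 3 and 3 rising. The part of these shifts in cell identity in the results below was not tested.

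Because CpG-rich sequence is where Polycomb complexes are found, the 250 bases before the start are shown for 5 members whose responses differ: *Epha8*, which rose where PRC1 was removed; *Unc5c* and *Sema5a*, which rose in all 3 null groups; *Sema3e*, which fell where *Eed* was deleted; and *Robo4*, which fell in PRC1/2-null cells alone among the 3 comparisons. They were picked for their responses with their CpG content known, and their order by CG pairs is not that of the members as a whole: the fallers *Sema4b*, *Sema5b* and *Sema6c* have 20, 19 and 15 CG pairs, and the risers *Ntng2*, *Sema3d* and *Sema3a* have 4, 4 and 2. Capitals mark every CG pair. The sequences are from RefSeq, build GRCm38.p6 (mm10), read 5′ to 3′ on the gene's strand.
*Epha8* (chr4:136956817-136957066, minus strand, 46 CG pairs): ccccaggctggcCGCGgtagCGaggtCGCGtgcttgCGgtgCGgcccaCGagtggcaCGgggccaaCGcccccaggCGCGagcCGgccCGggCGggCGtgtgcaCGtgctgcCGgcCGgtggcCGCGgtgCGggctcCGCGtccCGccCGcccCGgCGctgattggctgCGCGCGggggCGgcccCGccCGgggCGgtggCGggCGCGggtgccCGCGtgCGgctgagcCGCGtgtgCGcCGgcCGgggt
*Unc5c* (chr3:141465314-141465563, plus strand, 23 CG pairs): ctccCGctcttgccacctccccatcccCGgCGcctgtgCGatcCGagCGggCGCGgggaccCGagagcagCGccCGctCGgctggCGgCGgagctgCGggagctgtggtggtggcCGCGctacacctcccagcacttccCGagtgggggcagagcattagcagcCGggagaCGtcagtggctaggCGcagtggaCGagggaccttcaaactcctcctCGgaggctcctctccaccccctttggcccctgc
*Sema5a* (chr15:32244563-32244812, plus strand, 17 CG pairs): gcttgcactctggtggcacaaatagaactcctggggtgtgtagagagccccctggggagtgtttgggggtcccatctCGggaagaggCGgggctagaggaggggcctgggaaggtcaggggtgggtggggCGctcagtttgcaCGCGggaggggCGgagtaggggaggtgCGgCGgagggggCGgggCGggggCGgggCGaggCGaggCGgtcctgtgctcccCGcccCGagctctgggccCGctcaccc
*Sema3e* (chr5:14025026-14025275, plus strand, 7 CG pairs): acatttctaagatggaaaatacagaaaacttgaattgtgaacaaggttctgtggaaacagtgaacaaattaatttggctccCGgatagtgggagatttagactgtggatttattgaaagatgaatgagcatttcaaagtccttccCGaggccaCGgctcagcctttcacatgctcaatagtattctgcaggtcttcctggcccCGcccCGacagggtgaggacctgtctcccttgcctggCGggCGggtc
*Robo4* (chr9:37401722-37401971, plus strand, 2 CG pairs): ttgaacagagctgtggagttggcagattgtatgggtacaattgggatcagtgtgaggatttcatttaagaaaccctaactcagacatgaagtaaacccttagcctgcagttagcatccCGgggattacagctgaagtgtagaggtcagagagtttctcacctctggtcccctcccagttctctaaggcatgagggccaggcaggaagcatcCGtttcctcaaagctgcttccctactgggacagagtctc

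Guidance genes were called higher, and none lower, after removal of PRC1 with tamoxifen. In PRC1-null cells 26 of 69 members tested rose and 0 fell, against 10.9% of all genes tested that rose and 1.1% that fell, and the median moderated log2 fold change of the members was 0.64 against -0.04 over all genes. In the authors' DESeq2 test 7 members were lower at an adjusted p under 0.05 without the fold threshold, *Ntn1* among them, and 8 at an unadjusted p under 0.05. The risers came from each of the 4 systems and comprised 12 of 37 ligands and 14 of 32 receptors. After deletion of *Eed* 26 of 70 members rose and 6 fell, against 15.1% and 5.19% of all genes, with a median of 0.56 against 0.04. All 6 that fell were ligands, of 37 ligands tested, and 0 of 33 receptors fell, although 5 were lower at an unadjusted p under 0.05 in the authors' DESeq2 test. With both complexes removed 38 of 70 rose and 8 fell, against 21.1% and 10.4% of all genes, and the median was 1.46 against 0.05. The 3 comparisons share the control libraries, so that their calls are not independent. By call, 18 members rose in all 3 comparisons (*Efna5*, *Epha3*, *Epha5*, *Epha6*, *Ephb1*, *Nrp1*, *Ntn4*, *Ntng2*, *Plxnd1*, *Robo2*, *Sema3a*, *Sema3d*, *Sema3g*, *Sema5a*, *Sema6d*, *Slit3*, *Unc5c* and *Unc5d*), 9 were called higher only in PRC1/2-null cells, and 20 were called in none. Among genes with a promoter sequence, 17 of 61 members rose in all 3, and 908 of the 13658 genes tested in PRC1/2-null cells. Shares over all genes were not worked out for the other patterns of calls. Some of the members' calls lay close to the fold threshold: centring on the same chromosome added 7 calls and removed 2, in 7 members, with *Efna4*, *Plxnc1* and *Sema3c* then called in at least 1 single null. The implied mean was highest in PRC1/2-null cells for 40 of the 70 members and lowest in control cells for 42, with no share over all genes worked out. Its median over members was 132, 261, 251 and 454, and the number of members with an implied mean of at least 100 was 40, 58, 56 and 61.

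**Figure D1:**
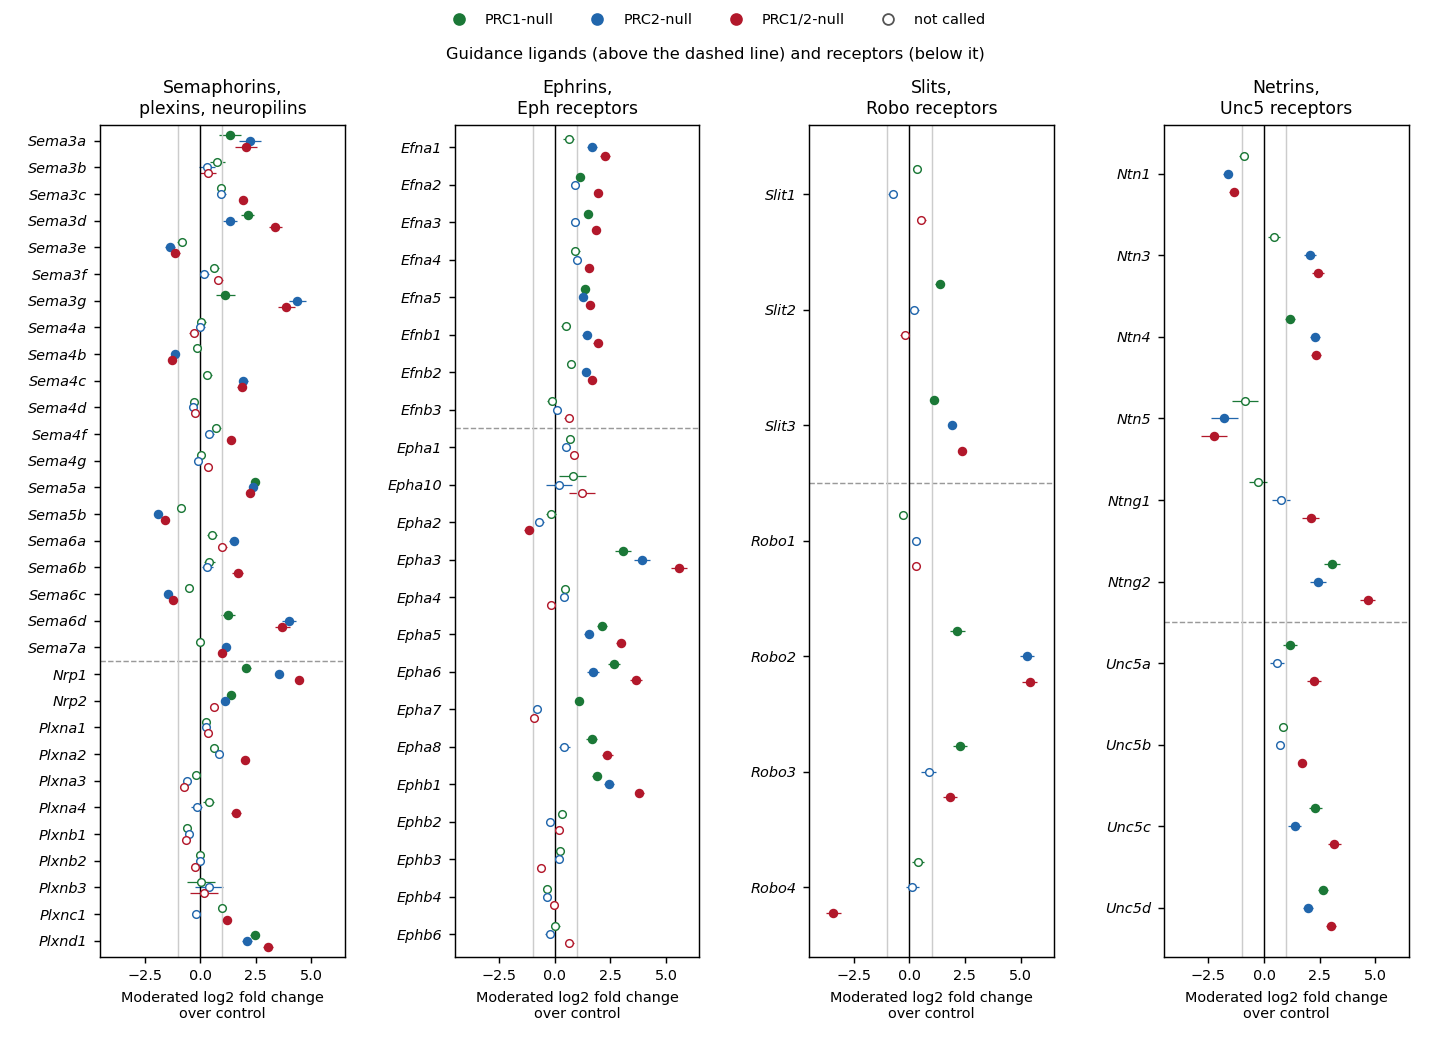
Moderated log2 fold change over control (horizontal axis, ± SE of the authors' fit, 4 libraries per group) of the 70 guidance ligands and receptors in PRC1-null (green), PRC2-null (blue) and PRC1/2-null cells (red), with filled points for called genes and grey lines at a log2 fold change of 1 and -1. Most filled points lie to the right; *Robo4* at -3.41 in PRC1/2-null cells lies farthest to the left.

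**Figure D2:**
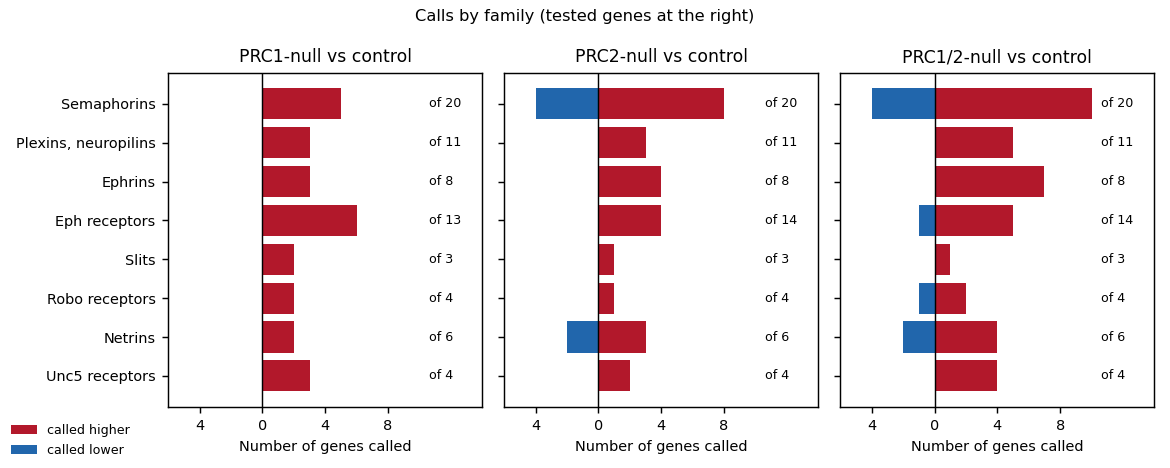
Number of genes called higher (red, to the right) and lower (blue, to the left) in each family of ligands or receptors in the 3 comparisons with control; the number tested is at the right of each bar. No family has a call to the left in PRC1-null cells, and in PRC2-null cells only semaphorins (4) and netrins (2) do.

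Among the Slits and their Robo receptors, *Robo2* showed the largest rise of any member with a mean count of at least 100 in both groups without *Eed*. Its implied mean was 35.5, 182, 1801 and 1978. The moderated log2 fold changes were 2.16 ± 0.32 (SE; adjusted p = 3.82e-10), 5.27 ± 0.32 (4.14e-59) and 5.40 ± 0.32 (1.35e-62), highest in the 2 groups without *Eed*. *Robo1*, the neighbouring gene 844 kb away on chromosome 16, was called in no comparison: its implied means were 5692, 4605, 6957 and 7046, with log2 fold changes between -0.30 and 0.31.

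*Robo3*, which regulates midline crossing, and *Robo4*, the Robo receptor of endothelial cells, lie 2.02 kb apart on chromosome 9 and were called in opposite directions. *Robo3* had implied means of 13.1, 69.9, 25.4 and 50.9 and rose by 2.26 ± 0.32 in PRC1-null (adjusted p = 2.08e-11) and 1.82 ± 0.32 in PRC1/2-null cells (3.78e-08). *Robo4* stood at 81.7, 109, 90.1 and 5.71, and its log2 fold change was 0.39 ± 0.28 in PRC1-null and 0.14 ± 0.28 in PRC2-null cells but -3.41 ± 0.35 in PRC1/2-null cells (adjusted p = 3.89e-21). Among 8 endothelial markers, *Pecam1* fell in PRC1/2-null cells (log2 fold change -3.25) and 4 rose, *Cdh5* (3.42), *Erg* (2.46), *Kdr* (2.74) and *Tie1* (4.37). *Cldn5* and *Emcn* had implied means under 10 in every group, and *Tek* was not called (-0.41). The sums of the 8 were 3221, 2101, 3982 and 2089. Of these, *Pecam1* held 2145, 1063, 1620 and 213, and *Tek* 951, 653, 1248 and 712, so the sums do not follow the 4 that rose. The part of endothelial or *Pecam1*-expressing cells in the *Robo4* result was not tested.

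The 3 Slits, secreted ligands of Robo receptors, each followed a course of their own. *Slit3* rose in every null group, with implied means of 618, 1334, 2410 and 3283 and log2 fold changes of 1.09 ± 0.17, 1.93 ± 0.17 and 2.37 ± 0.17. *Slit3* lies on chromosome 11, where the median log2 fold change of expressed genes exceeded that of the other chromosomes by 0.47 in PRC2-null cells and 0.51 in PRC1/2-null cells; centred on its chromosome, the rise of *Slit3* was 1.53 and 1.97 and was still called. *Slit2* was highest in PRC1-null cells, at 4901 against 1872 in control, 2201 in PRC2-null cells and 1605 in PRC1/2-null cells, and rose there alone (1.35 ± 0.21, adjusted p = 7.32e-10). *Slit1* was called in no comparison with control, with implied means of 193, 245, 113 and 283 and log2 fold changes of 0.34, -0.75 and 0.54.

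In PRC1/2-null cells all 10 netrin, netrin-G and Unc5 genes were called, 8 higher and 2 lower, against 21.1% and 10.4% of all genes. *Dcc* and *Neo1*, read with the pathway genes below, are not among the 10. There *Dcc* rose (4.18) and *Neo1* was not called (-0.50). All 4 Unc5 receptors, which mediate repulsion from netrin 1, rose in PRC1/2-null cells. *Unc5d* went from 178 in control to 1188, 744 and 1531 (log2 fold changes 2.65 ± 0.23, 1.99 ± 0.23 and 3.00 ± 0.23). *Unc5c* went from 36.4 to 198, 101 and 367 (2.31 ± 0.28, 1.38 ± 0.28 and 3.17 ± 0.28). For both genes the PRC2-null level lay below the PRC1-null level, by a log2 difference that did not pass the test. *Unc5a*, at 52.7, 127, 82.6 and 276, rose in PRC1-null (1.19 ± 0.31) and PRC1/2-null cells (2.25 ± 0.31), and *Unc5b*, at 1154, 2131, 1925 and 3845, passed the fold threshold in PRC1/2-null cells (1.72 ± 0.14) after 0.88 and 0.73 in the single nulls. The range over the 4 receptors in PRC1/2-null cells was 1.72 to 3.17.

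Among the ligands, *Ntn1*, the founding netrin, fell whereas other netrins rose. The implied mean of *Ntn1* was 3172, 1657, 996 and 1200, highest in control. Its log2 fold change was -0.92 ± 0.19 in PRC1-null (adjusted p = 1.34e-05, short of the fold threshold), -1.63 ± 0.19 in PRC2-null cells and -1.37 ± 0.19 in PRC1/2-null cells; centred on chromosome 11, where it lies, the falls were -2.03 and -1.77. *Ntn5* also fell in the last 2 groups, but from an implied mean of 16.3 to 2.93 and 1.58, and it overlaps *Sec1* on the opposite strand. *Ntn4*, a component of basement membranes, rose from 82.8 to 190, 430 and 442 (1.16 ± 0.23, 2.30 ± 0.23 and 2.33 ± 0.23). *Ntn3* went from 41.6 to 57.7, 185 and 240 and was called in PRC2-null (2.06 ± 0.26) and PRC1/2-null cells (2.43 ± 0.26). The membrane-tethered netrin-G2 gene *Ntng2* rose from 4.46 to 49.3, 30.9 and 155 (3.06 ± 0.35, 2.41 ± 0.36 and 4.66 ± 0.34), and *Ntng1*, at 22.2, 18.1, 40.1 and 111, was called in PRC1/2-null cells (2.10 ± 0.39).

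**Figure D3:**
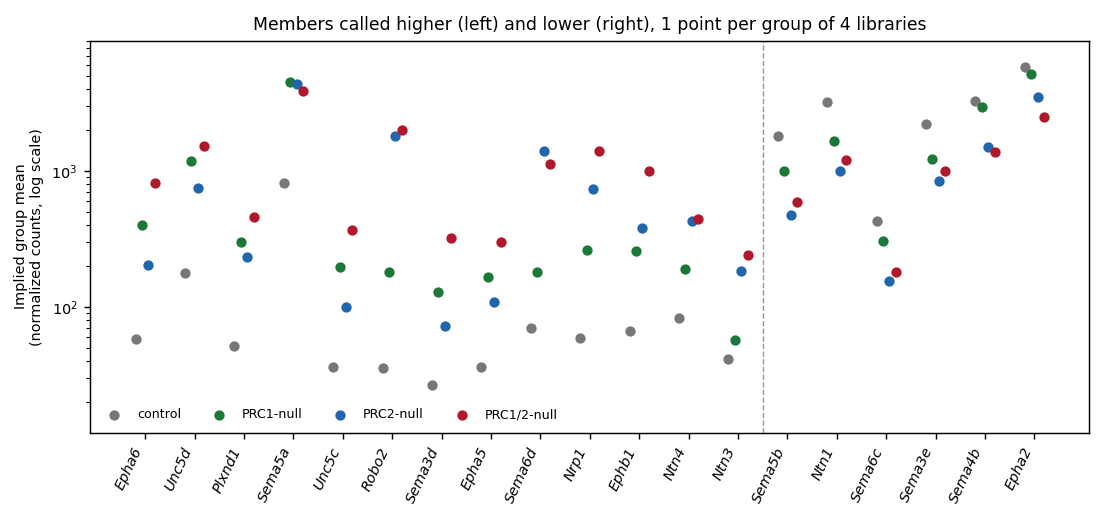
Implied group means (vertical log axis, normalized counts; 1 point per group of 4 libraries, no error available) of the 13 members with the largest called rises and the 6 with the largest called falls among those with a mean count of at least 100. Control points are the lowest for every gene on the left and the highest for every gene on the right, which the choice of genes by their change from control largely fixes.

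Of the receptors in the semaphorin system, both neuropilins and plexin D1 rose in each single null, and the B-type plexins were called nowhere. *Nrp1*, the co-receptor of class 3 semaphorins and of VEGF, had implied means of 59.7, 264, 736 and 1392, rising by 2.08 ± 0.19, 3.54 ± 0.19 and 4.44 ± 0.19. *Nrp2* was at 1009, 2726, 2227 and 1549 and rose in PRC1-null (1.40 ± 0.18) and PRC2-null cells (1.12 ± 0.18) but not beyond 2-fold in PRC1/2-null cells (0.61 ± 0.18, adjusted p = 0.00176). *Plxnd1*, the receptor of semaphorin 3E, went from 51.8 to 299, 234 and 456 (2.45 ± 0.22, 2.11 ± 0.22 and 3.05 ± 0.21). *Plxna2*, *Plxna4* and *Plxnc1* were called higher in PRC1/2-null cells only, at 2.01 ± 0.12, 1.63 ± 0.23 and 1.20 ± 0.14, and *Plxnc1* in PRC1-null cells, at 1.00 ± 0.14, lay just under the fold threshold and passed it with unshrunken values (1.01). *Plxna1* and *Plxnb2* had implied means of 4132 to 5354 and 2661 to 3128 over the 4 groups and were called nowhere, like *Plxna3*, *Plxnb1* and *Plxnb3*. Some of these passed an adjusted p under 0.05 in the authors' DESeq2 test without the fold threshold. *Plxnb1* was lower in all 3 comparisons (-0.60, -0.48 and -0.64) and *Plxna3* in PRC2-null and PRC1/2-null cells (-0.60 and -0.75). *Plxna1* was higher in PRC1/2-null cells (0.37).

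Of the 20 semaphorins, 5 rose in PRC1-null cells, 8 rose and 4 fell in PRC2-null cells, and 10 rose and 4 fell in PRC1/2-null cells. Over all genes tested, 10.9%, 15.1% and 21.1% rose in these groups, and 1.1%, 5.19% and 10.4% fell. *Sema5a*, a transmembrane semaphorin, rose to like levels in the 3 null groups: it went from 809 in control to 4496, 4297 and 3857, with log2 fold changes of 2.45, 2.38 and 2.23, each ± 0.13. *Sema6d* went from 70.7 to 182, 1388 and 1121 (1.25 ± 0.33, 3.99 ± 0.33 and 3.70 ± 0.33); its other 2 transcript entries were not called in PRC1-null cells (0.79 and 0.23) and rose by 4.66 and 4.74 in PRC2-null cells. *Sema4c* was at 172, 215, 681 and 649 and rose only where *Eed* was deleted (1.94 ± 0.20 and 1.87 ± 0.20). *Sema3g*, at 3.57, 9.88, 110 and 77.5, rose by 1.12 ± 0.42, 4.37 ± 0.39 and 3.88 ± 0.39.

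The 4 semaphorins that fell were the same genes in PRC2-null and PRC1/2-null cells. *Sema5b* had implied means of 1803, 991, 474 and 589, and fell by 1.91 ± 0.13 (log2; adjusted p = 3.68e-44) and 1.60 ± 0.13 (4.82e-32). *Sema6c* (431, 306, 156 and 180), *Sema3e* (2195, 1210, 838 and 996) and *Sema4b* (3266, 2918, 1501 and 1366) had log2 fold changes of -1.44, -1.35 and -1.12 in PRC2-null cells and -1.23, -1.11 and -1.25 in PRC1/2-null cells. Centred on their own chromosome, *Sema4b* in PRC2-null cells (-0.96) and *Sema3e* in PRC1/2-null cells (-0.95) no longer passed the fold threshold. In a run of class 3 genes on chromosome 5, *Sema3d* and *Sema3a*, 536 kb apart, rose in every null group, while *Sema3e*, 422 kb from *Sema3a*, fell in PRC2-null and PRC1/2-null cells. *Sema3d* went from 26.7 to 129, 72.2 and 320 (2.13 ± 0.30, 1.33 ± 0.31 and 3.38 ± 0.30).

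Among the ephrins, 7 of 8 rose in PRC1/2-null cells, against 21.1% of all genes. The exception was *Efnb3* (0.62 ± 0.19, and 0.23 centred on chromosome 11). The GPI-anchored ephrin-A genes all rose in PRC1/2-null cells, by 1.53 to 2.26. *Efna5* went from 1296 in control to 3349, 3148 and 3901 (1.36 ± 0.13, 1.27 ± 0.13 and 1.57 ± 0.13). *Efna1*, *Efna3* and *Efna4* form a run on chromosome 3, 32.9 and 10.5 kb apart, and rose together in PRC1/2-null cells. *Efna3* was also called in PRC1-null cells (1.48 ± 0.19, and 1.85 ± 0.19 in PRC1/2-null cells), and *Efna1* in PRC2-null cells (1.67 ± 0.23, and 2.26 ± 0.23). *Efna4* stood at 0.93 ± 0.19, 1.00 ± 0.19 and 1.53 ± 0.19; its first 2 values lay just under the fold threshold and passed it when centred on chromosome 3 (1.00 and 1.03), and its PRC1/2-null level was not called different from either single null (adjusted p = 0.0542 and 0.151). The transmembrane *Efnb1* (115, 163, 317 and 453) and *Efnb2* (516, 848, 1361 and 1690), an arterial marker, rose where *Eed* was deleted, by 1.43 ± 0.20 and 1.39 ± 0.12 in PRC2-null cells.

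The Eph receptors, the largest family of receptor tyrosine kinases, comprised 6 genes that rose in at least 1 comparison, *Epha2*, which fell in 1, and 7 that were called in none. No share over all genes was worked out for this pooled count. In PRC1-null cells 6 of the 13 tested rose, against 10.9% of all genes. In PRC2-null cells 4 of 14 rose (15.1%), and in PRC1/2-null cells 5 of 14 rose (21.1%) and 1 fell (10.4%). *Epha3* was at 3.42, 42.0, 76.6 and 251 (3.08 ± 0.36, 3.92 ± 0.35 and 5.59 ± 0.35). *Epha6*, on the same chromosome, went from 58.0 to 401, 204 and 820 (2.66 ± 0.27, 1.72 ± 0.27 and 3.65 ± 0.27), and *Epha5* from 36.5 to 166, 110 and 302 (2.12 ± 0.20, 1.54 ± 0.21 and 2.97 ± 0.20). *Ephb1* rose from 66.5 to 257, 380 and 993 (1.89 ± 0.21, 2.44 ± 0.21 and 3.80 ± 0.20) and was the only Ephb gene called; *Ephb2*, *Ephb3*, *Ephb4* and *Ephb6* had log2 fold changes between -0.62 and 0.65. *Epha8* rose in PRC1-null (49.3 to 164; 1.66 ± 0.26) and PRC1/2-null cells (273; 2.37 ± 0.26) but not in PRC2-null cells (67.7; 0.43 ± 0.27). *Epha7* was at 412, 897, 232 and 215: it rose in PRC1-null cells (1.11 ± 0.15) and was lower in the others by less than 2-fold (-0.82 ± 0.15 and -0.93 ± 0.15). *Epha2*, an Eph receptor of pluripotent cells, fell from 5730 in control to 2489 in PRC1/2-null cells (-1.17 ± 0.21) and had levels of 5096 and 3475 in the single nulls.

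Whether PRC1 removal still changed guidance genes once *Eed* was absent was asked by comparing PRC1/2-null with PRC2-null cells, through a two-sided Wald test of the difference between their log2 fold changes, adjusted over all entries with a value in both. In this comparison 16 of 70 members were higher and 1 was lower, against 5.07% and 2.02% of all genes, and 11 of the 16 were receptors. *Plxnc1* differed by 1.37 ± 0.20 (adjusted p = 2.93e-10), *Plxna2* by 1.14 ± 0.17 (2.64e-09), *Plxna4* by 1.78 ± 0.34 (4.68e-06) and *Epha8* by 1.94 ± 0.37 (6.15e-06). *Unc5a*, *Unc5c* and *Unc5d* were also higher, by 1.64 ± 0.44, 1.79 ± 0.40 and 1.01 ± 0.33. *Robo4* was the 1 member that was lower (-3.55 ± 0.45, adjusted p = 1.37e-12). *Robo2* differed by 0.13 ± 0.45, and *Sema6d*, *Sema4c* and *Sema5a* were not called either.

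Between the single nulls, 9 of 69 members were higher in PRC2-null than in PRC1-null cells and 7 were lower, against 6.02% and 4.53% of all genes. The largest shifts toward PRC2-null cells were those of *Sema3g* (3.24 ± 0.57, adjusted p = 3.82e-07), *Robo2* (3.12 ± 0.45, 3.29e-10), *Sema6d* (2.74 ± 0.47, 1.26e-07) and *Sema4c* (1.62 ± 0.29, 3.28e-07), and 7 of the 9 were ligands. Higher in PRC1-null cells were *Epha7* (-1.93 ± 0.21 as PRC2-null minus PRC1-null, adjusted p = 3.88e-17), *Plxnc1* (-1.17 ± 0.20, 7.21e-08), *Sema5b* (-1.05 ± 0.19, 5.22e-07), *Slit1* (-1.09 ± 0.27, 0.00056), *Slit2* (-1.13 ± 0.29), *Epha8* (-1.22 ± 0.37) and *Robo3* (-1.38 ± 0.46). The signs follow the levels already given: *Slit2* was at 4901 in PRC1-null and 2201 in PRC2-null cells, *Robo2* at 182 and 1801. PRC2-null and PRC1-null cells also differ in tamoxifen, clone and passage, which cannot be told apart from the complex lost.

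Set against PRC1-null cells, PRC1/2-null cells had 20 of 69 members higher and 5 lower, against 11.6% and 6.22% of all genes. *Nrp1* (2.36 ± 0.27, adjusted p = 2.58e-16), *Plxna2* (1.40 ± 0.17, 1.18e-14), *Robo2* (3.24 ± 0.45, 1.88e-11) and *Ephb1* (1.91 ± 0.29, 8.55e-10) had the smallest adjusted p among those higher. The 5 that were lower were *Epha7* (-2.04 ± 0.21, 1.46e-19), *Robo4* (-3.81 ± 0.45, 2.03e-15), *Sema4b* (-1.09 ± 0.13, 3.12e-15), *Slit2* (-1.57 ± 0.29, 5.67e-07) and *Epha2* (-1.01 ± 0.30). These 2 groups differ in line, clone and passage as well as in *Eed*.

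The change with tamoxifen could be compared between the lines, as the difference between PRC1/2-null and PRC2-null cells minus that between PRC1-null and control cells. This departure from additivity was called for 17 of 69 members, 13 below and 4 above the sum of the single effects, against 3.67% and 0.992% of all genes. *Sema5a* departed by -2.60 ± 0.23 (adjusted p = 5.28e-27): tamoxifen took it from 809 to 4496 in the line with *Eed*, and its levels were 4297 and 3857 in the line without. *Robo2* (-2.03 ± 0.55), *Nrp2* (-1.92 ± 0.32), *Slit2* (-1.80 ± 0.36), *Unc5d* (-1.64 ± 0.40), *Plxnd1* (-1.51 ± 0.37) and *Nrp1* (-1.18 ± 0.33) also lay below the sum and had risen in PRC1-null cells. Both single-null changes are subtracted in this measure, so a rise in either lowers the value, and a fall raises it, by construction. *Epha4*, *Ephb3*, *Sema6a* and *Robo4*, also below the sum, were not called in PRC1-null cells. *Robo4* lay below the sum by the most, at -3.94 ± 0.53 (adjusted p = 7.76e-11). Above the sum were *Plxna4* (1.39 ± 0.41) and 3 ligands that fell in both *Eed*-deleted groups, *Ntn1* (1.18 ± 0.33), *Sema5b* (1.16 ± 0.23) and *Sema3e* (1.08 ± 0.36).

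**Figure D4:**
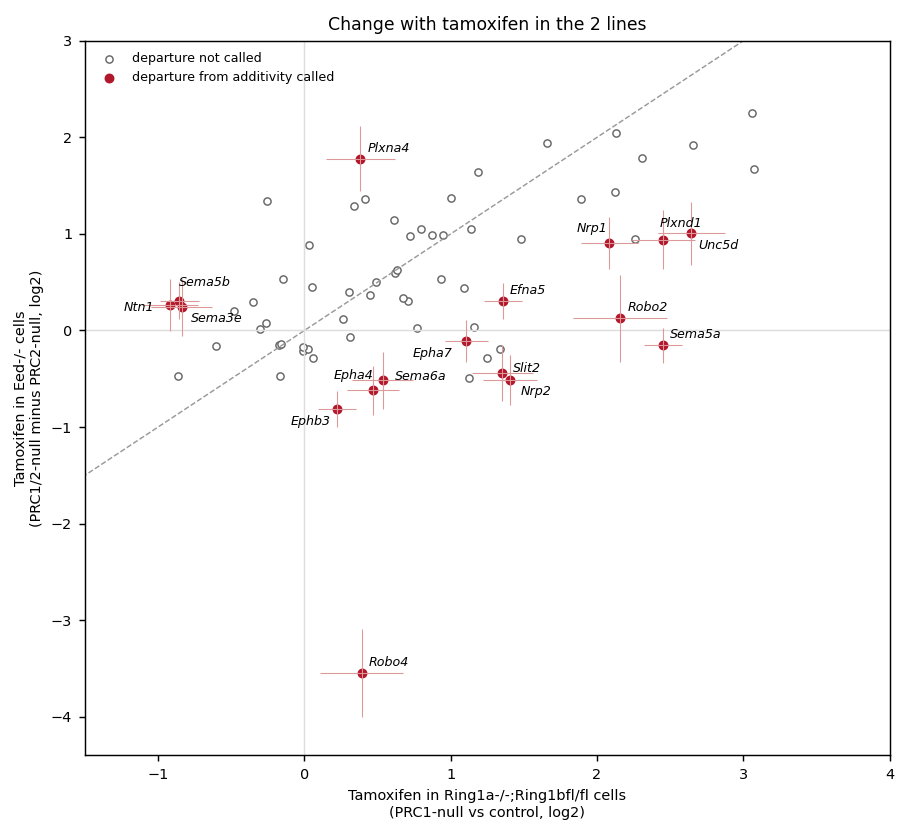
Log2 change with tamoxifen in the line with *Eed* (horizontal axis, PRC1-null against control) and in the line without (vertical axis, PRC1/2-null minus PRC2-null) for the members tested, with ± SE drawn for the 17 whose departure from additivity was called (red) and a dashed line of equal change. *Sema5a* and *Robo2* lie far below the line at the right, *Robo4* far below it near the centre, and *Plxna4* above it.

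Co-receptors and intracellular partners that are no members were read from a list of 69 pathway genes, of which 68 were found. Of these, 14 rose and 0 fell in PRC1-null cells (14 were lower at an unadjusted p under 0.05 in the authors' DESeq2 test), 17 rose and 3 fell in PRC2-null, and 27 rose and 3 fell in PRC1/2-null cells, with medians of 0.11, 0.24 and 0.65. Of all genes tested, 10.9%, 15.1% and 21.1% rose in the same order, and 1.1%, 5.19% and 10.4% fell. In PRC1-null cells the smallest adjusted p belonged to *Flrt1* (2.46, 1.83e-40), which encodes a partner of Unc5 receptors, *Tiam2* (1.64, 1.23e-33), a Rac exchange factor, and *Rgma* (1.60, 1.1e-18), a ligand of neogenin. *Nrcam*, an adhesion molecule that binds neuropilins, rose by 3.24 in PRC2-null cells (2.58e-91) and by 3.26 with both complexes removed (4.18e-93), and the monooxygenase gene *Mical2*, of a family acting below plexins, by 3.62 in PRC2-null cells (6.11e-63). *Flrt2* rose by 3.66 in PRC2-null cells (1.03e-53), and *Nck2* and *Trio*, which encode an adaptor and an exchange factor, by 1.41 (3.28e-86) and 1.58 (3.6e-62) in PRC1/2-null cells. The genes that fell were *Ptk7* (-1.40, 2.5e-21), *Enah* (-1.32, 1.14e-14) and *Dscaml1* (-1.02, 1.53e-06) in PRC2-null cells, and *Enah* (-2.31, 2.26e-43), *Ptk7* (-1.54, 4.79e-26) and *Mical1* (-1.14, 1.52e-08) in PRC1/2-null cells.

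CpG content of the 250 bases before the start was available for 61 of the 70 members. By the criterion of an observed over expected CpG ratio of at least 0.6 and a GC content of at least 50%, 34 of them (55.7%) were CpG-rich, against 48.2% of 15271 genes with a promoter and 53.8% of the 13658 of these that were tested in PRC1/2-null cells. Under a stricter criterion, a ratio of at least 0.75 and a GC content of at least 55%, the direction turned, with 29.5% of members against 30.5% and 34.0%. The share was 60.0% of 25 members that rose in PRC1-null cells (50.8% of all genes that rose), 54.2% of 24 in PRC2-null cells (42.5%) and 61.1% of 36 in PRC1/2-null cells (46.1%), and 51.4%, 56.2% and 50.0% of members not called in the same comparisons (58.1%, 56.7% and 56.9% of all genes not called). Of the members that fell and had a promoter, 3 of 5 in PRC2-null and 3 of 7 in PRC1/2-null cells were CpG-rich. The median number of CG pairs was 17 in members, 12 in all genes and 14 in the genes tested in PRC1/2-null cells, and in members that rose in PRC1/2-null cells 17.5, from 2 in *Sema3a* to 46 in *Epha8*. Among the members that rose in all 3 comparisons and had a promoter, 8 of 17 were CpG-rich. These are shares without a test; the window ends at 1 annotated start per gene, and for 46 of 63 symbols taken by the rule that start lay within 100 bases of the start of the counted transcript.

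**Figure D5:**
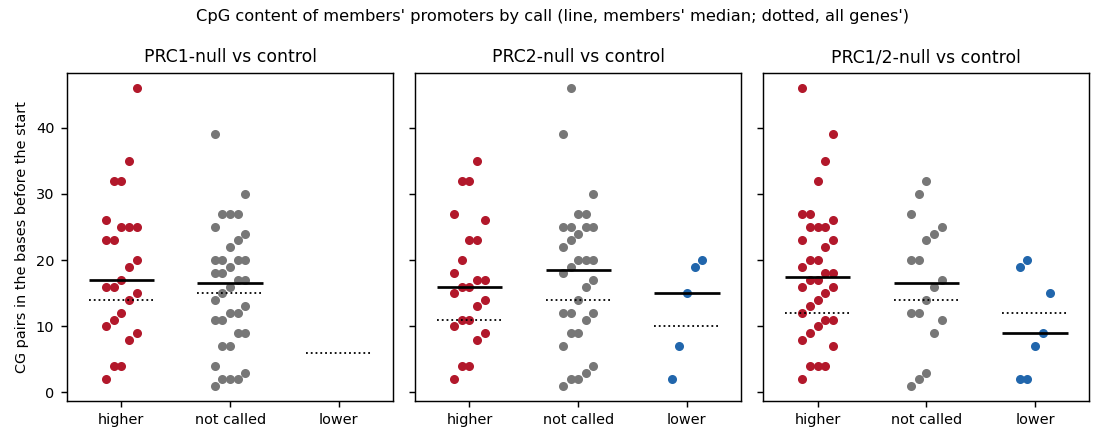
Number of CG pairs in the 250 bases before the start (vertical axis) of members with a promoter, by call in each comparison with control (higher, not called or lower; 1 point per gene, solid line for the members' median and dotted line for that of all genes). The points of all classes overlap, from 1 to 46.

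For 22 members a gene on the opposite strand overlaps the locus (*Efna3*, *Efna4*, *Epha1*, *Epha6*, *Epha7*, *Epha10*, *Ephb1*, *Ephb4*, *Nrp2*, *Ntn3*, *Ntn4*, *Ntn5*, *Plxna1*, *Plxna4*, *Plxnb1*, *Sema3e*, *Sema4c*, *Sema5a*, *Sema6d*, *Slit2*, *Unc5a* and *Unc5c*), and whether reads were assigned by strand is not given in the sources used here, so values of these genes are less certain than the SE shows.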

How the data were processed

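Nuclear RNA was depleted of rRNA, converted with a strand-marking kit and sequenced in paired ends. Per the paper's methods, rRNA reads were filtered out by the authors with Bowtie 2, the rest aligned by STAR to mm10, duplicates dropped with SAMtools, and reads counted on a non-redundant set of genes before a DESeq2 comparison of each null group and control. The signal is a mean normalized count over all 16 libraries, deposited by the authors with equal values in each table. Each log2 fold change was deposited by the authors in moderated and unshrunken form, with a standard error. The p-value deposited by the authors is from a Wald test; applying Benjamini-Hochberg to the 17445 (PRC1-null) or 18588 entries with an adjusted p gave back that column. These columns of the authors' comparisons are the basis of all values here. Depth per library is unknown, so no counting interval is given.

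Symbols were matched for 20560 of 20633 entries, 20450 in RefSeq and 110 in GENCODE. Backgrounds count 1 entry per gene. Differences between comparisons, and the departure from additivity, were tested per entry with a two-sided Wald test whose variance was the sum of the squared standard errors, adjusted by Benjamini-Hochberg over all entries, and called at an adjusted p under 0.05 and a log2 difference beyond 1. The test was checked on simulated data with normal noise of the size of the standard errors and large differences in well measured entries. That check does not cover shrinkage, counting noise at low counts or differences near the threshold. Group means were derived on the assumption of a single fit with 4 groups of equal size.

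The members and the lists were chosen with earlier results of these data known. Named members were, per comparison, up to 8 called higher and 6 called lower whose mean normalized count reached 100, up to 4 in each direction per difference with the smallest adjusted p, and the gene with the highest control mean of each of the 11 prefixes; the others were named where they complete a family, after their values had been seen. Of pathway genes, the 3 with the smallest adjusted p in each direction were named. Calculations used Python 3.11.15 with scipy 1.17.1, numpy 2.4.6 and pandas 2.3.3, and plots matplotlib 3.10.9.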

Additional observations from a re-analysis of the deposited data

Results flagged for a closer look

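The effect of tamoxifen differed between the line with *Eed* and the line without it for 17 members, by the test of the departure from additivity. Log2 differences below 0, with the adjusted p of that test, were -3.94 for *Robo4* (7.76e-11), -2.60 for *Sema5a* (5.28e-27), -2.03 for *Robo2* (0.00611), -1.92 for *Nrp2* (2.1e-07), -1.80 for *Slit2* (3.05e-05), -1.64 for *Unc5d* (0.00148), -1.51 for *Plxnd1* (0.00169), -1.22 for *Epha7* (0.000199) and -1.18 for *Nrp1* (0.00877). Further values below 0 were -1.09 for *Epha4* (0.00921), -1.05 for *Efna5* (0.000178), -1.05 for *Sema6a* (0.0477) and -1.04 for *Ephb3* (0.000257). Differences above 0 were 1.39 for *Plxna4* (0.0133), 1.18 for *Ntn1* (0.0081), 1.16 for *Sema5b* (3.15e-05) and 1.08 for *Sema3e* (0.0386). No sample could be compared with the others of its group, because no values per library were used.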

How the results depend on the processing

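No paired analysis was possible because the tables used here hold no values per library, and leaving out replicates was not run for the same reason. Every count of members called kept within 1.5 times its reported value at an adjusted p under 0.01, with unshrunken fold changes, with entries of a mean count of at least 10 only, after centring on the median of all entries or of the same chromosome, with every entry of a member counted, and with a variance reduced for the shared control, as far as each applied. Without the fold threshold, 40 members were higher and 7 lower in PRC1-null cells, and 13 were lower in each of the other comparisons with control. On the same terms 2 were lower in PRC1/2-null than in PRC2-null cells, 14 were higher and 11 lower in PRC2-null than in PRC1-null cells, and 11 were lower in PRC1/2-null than in PRC1-null cells. The share of CpG-rich promoters was 29.5% under the stricter criterion of a ratio of at least 0.75 and a GC content of at least 55%, against 30.5% of all genes. The fibroblast sum without *Pdgfra*, the promoter share of tested genes and the centred calls of every member were chosen after seeing the data. Depth per library is unknown, and members with a mean count under 10 were measured with SE of 0.58 or more.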
